A study of Mus musculus with 8 samples.

Results

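The genes described here encode the folding and degradation machinery of the endoplasmic reticulum (ER), measured in mouse pancreatic cancer cells whose culture did or did not receive an antibody against sonic hedgehog (SHH). They are the 35 genes of a named list, found by symbol among the 39179 genes of the deposited count table, and each symbol matched 1 row. Of these, 34 passed the filter on low counts and were tested. The remaining one was Derl3, a derlin of ER-associated degradation that is abundant in secretory cells, with 1, 6, 6 and 3 counts with antibody and 6, 4, 1 and 2 without.

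The libraries hold polyA RNA of pancreatic epithelial cancer cells of an FVB/B6 mix background, which carry a green fluorescent label. All 8 libraries share 1 genotype, in which Cre under the promoter of the pancreatic lineage gene p48 (p48Cre) acts together with the alleles written as ROSA_rtTAL+ and p53L+ and with a tetracycline-controlled oncogene. The cells were grown for 72 h with pancreatic stellate cells carrying a red label, which lay down matrix as fibroblasts do, in 0.5% dialyzed serum, and were then sorted by colour. The SHH antibody arm (4 libraries) received 20 µg/mL of an SHH-neutralizing antibody, and the no antibody arm (4 libraries) received none. The labels name no control antibody for the second arm, do not say whether the cancer cells are 1 clone, and call the samples biological replicates without naming separate animals. The question is how RNA levels in the cancer cells change once SHH is blocked in this mixed culture.

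Secreted and membrane proteins enter the ER unfolded through the SEC61 channel. There the HSP70 protein BiP, the HSP90 protein GRP94, disulfide isomerases and the lectins calreticulin and calnexin fold them, and proteins that fail are drawn back to the cytosol and ubiquitinated by the HRD1 complex. Unfolded proteins activate 3 membrane sensors, ATF6, IRE1 (encoded by Ern1) and PERK, which raise the transcription of chaperones and degradation factors and lower translation. Pancreatic epithelium is known for a large secretory load, and its acinar cells for a particularly extensive ER.

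Each library held between 10009711 and 15733280 counts, and every antibody library was deeper than every library without antibody (14953255 to 15733280 against 10009711 to 14602784). The 35 genes together took 0.815% to 0.837% of counts with antibody and 0.758% to 0.845% without. The epithelial genes Krt8, Krt18, Krt19 and Cdh1 were abundant in both arms, and the 10 epithelial and ductal markers took 0.735% to 0.786% of counts with antibody and 0.674% to 0.784% without. Of these 9 were tested, and Epcam rose (log2 fold change 0.28 ± 0.08 SE, adjusted p = 0.022, edgeR). The marker not tested was Cldn7, with 0 to 15 counts in a library, and Cldn4 was low at 2.78 CPM with antibody and 3.12 CPM without. Of 16 stellate and fibroblast markers Dcn and Lum had no count in any library, and 7 were tested, of which Fbln2 and Pdgfra fell. A fold above 1 was found for 4 of the 7, and the median log2 fold change was 0.36. These 4 were Col1a1 (0.36), Col1a2 (0.47), Col3a1 (0.66) and Pdgfrb (0.61), and none of them was called. The list's summed share was 0.0247% to 0.0298% with antibody and 0.0318% to 0.0371% without (two-sided exact permutation p = 0.0286, n = 4 each, the smallest p that 4 against 4 allows; 0.0571 after Benjamini-Hochberg adjustment over 4 library measures). Without its most abundant gene, Fbln2, the share was 0.00307% to 0.00595% with antibody and 0.00319% to 0.00528% without. Of 9 acinar markers Cpa1, Pnlip and Amy2a5 had no count in any library and 1 was tested, Cela1, at 2.99 CPM with antibody and 3.88 CPM without (log2 fold change -0.36, adjusted p = 0.256, edgeR). Of 7 plasma and B cell markers none was tested, and Mzb1, Ms4a1 and Tnfrsf17 had no count in any library, while Prdm1, the most abundant, had 2 to 8 counts in each. Messenger RNAs of the mitochondrial genome took 6.21% of counts in replicate 1 without antibody, which differed most from the rest of its arm, and 3.94% to 4.77% in the other libraries. With every library thinned to the smallest total, a setting chosen after seeing the data, the 5 genes called below passed again, with adjusted p of 0.00119 to 0.0227 in edgeR. The part of stellate RNA in the results was not tested, and results are given with and without that library where it changed a call. In sorted bulk RNA, fewer cells with a transcript and less of it per cell cannot be told apart.

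With the antibody, 3 genes of this machinery were lower and 2 were higher, all by less than 1.3-fold. Herpud1, a scaffold of the HRD1 degradation complex, fell to 0.79 of its level without antibody, and the stress sensor genes Atf6 and Ern1 fell to 0.86 and 0.87. Dnajc10, which encodes an ER co-chaperone and disulfide reductase (ERdj5), rose 1.18-fold, and Edem1, which encodes a mannosidase-like factor that delivers glycoproteins to degradation, rose 1.14-fold. ERDJ5 and EDEM1 are known to bind each other in the ER. The main chaperone gene, Hspa5, had a fold of 1.00 with a 95% interval of 0.92 to 1.09.

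The 5 called genes are 14.7% of the 34 tested, against 8.4% of the 13626 genes tested in all (p under 0.05 in edgeR's quasi-likelihood test after Benjamini-Hochberg adjustment). By direction, 2 of 34 were higher, where 4.53% of all genes were, and 3 were lower, where 3.87% were. For 8 of the 34 genes no library of one arm reached into the range of the other, 5 higher and 3 lower, against 14.3% of all genes, 7.71% higher and 6.56% lower. At an unadjusted p under 0.05 there were 12 of 34, against 21.5% of all genes. A fold above 1 was found for 23 of the 34 genes, 67.6%, against 48.5% of all genes. The median log2 fold change was 0.05 over the 34 genes and -0.00 over all genes tested. For 29 of the 34 genes the 95% interval of the fold lay between 0.8 and the inverse of 0.8, as it did for 63% of all genes. The median half-width of that interval was 0.11 on the log2 scale over the 34 genes and 0.15 over all genes tested. Smaller folds can therefore pass among the 34, and these shares do not compare genes measured equally closely.

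**Figure D1:**
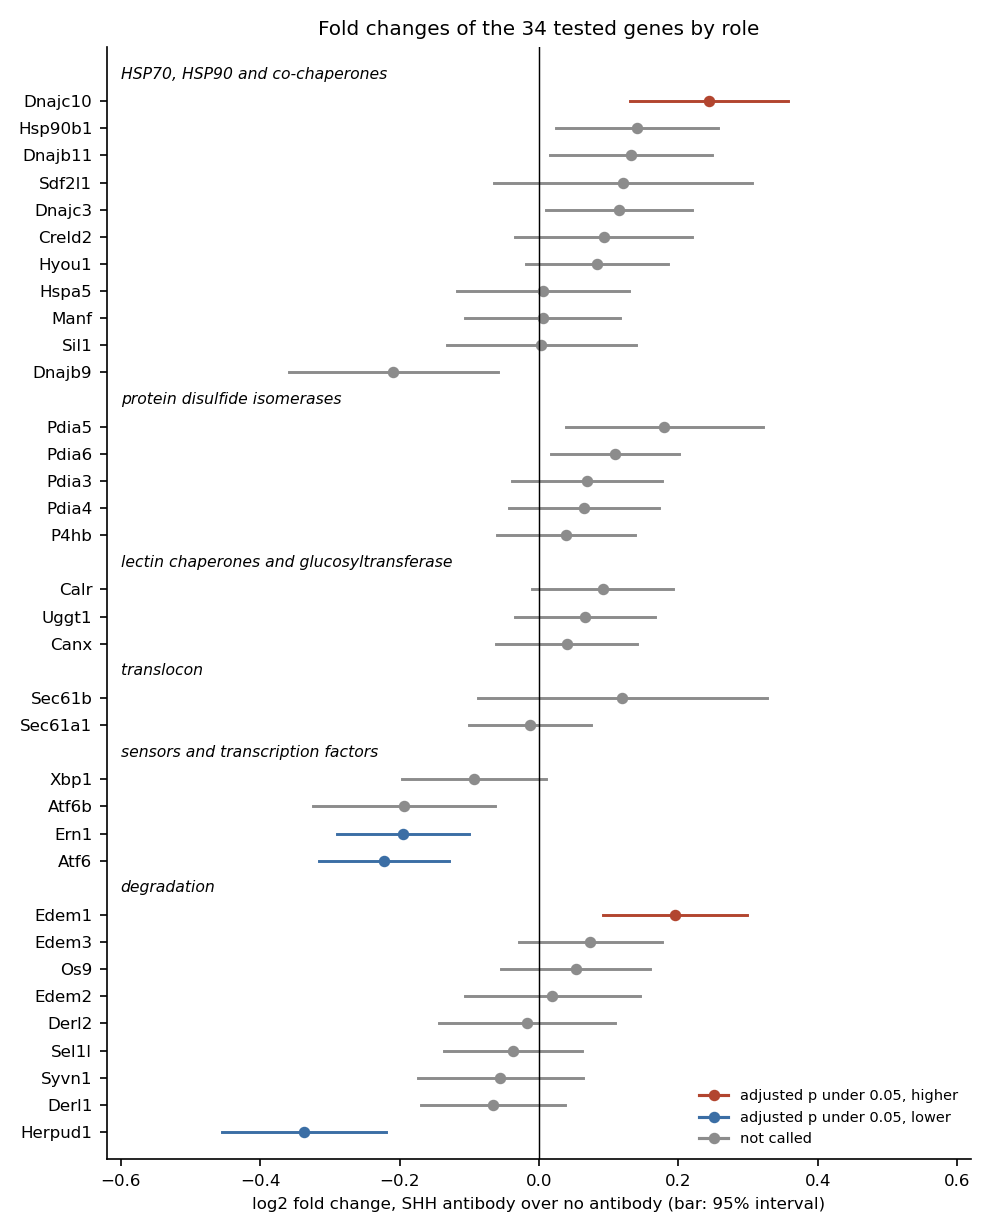
Log2 fold change of each tested gene (SHH antibody over no antibody, horizontal axis) with its 95% interval, grouped by role, from the edgeR fit to 4 libraries per arm. The sensor and transcription factor genes all lie below 0, while 18 of the 19 chaperone, isomerase and lectin genes lie above 0, of which 1 passed the test. Of all genes tested 48.5% lie above 0.

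The stress sensors and their transcription factors were the role group with the lowest fold changes. All 4 were below 1, with a median log2 fold change of -0.19, and 2 of the 4 fell, where 3.87% of all genes tested did. Atf6 encodes a transcription factor held in the ER membrane, which is cut free in the Golgi apparatus when unfolded proteins build up (ENSMUSG00000026663, chromosome 1, GRCm38). It stood at 128.9, 126.1, 129.0 and 129.5 CPM (counts scaled to library size) with antibody and at 145.0, 146.2, 154.8 and 152.9 CPM without. The arms did not overlap, and the antibody libraries lay within 4 CPM of each other (log2 fold change -0.22 ± 0.04 SE, adjusted p = 0.00258, edgeR).

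Ern1 encodes IRE1 alpha, the kinase and ribonuclease that splices the Xbp1 mRNA. It stood at 155.6, 159.1, 153.9 and 164.1 CPM with antibody and at 188.1, 172.6, 179.9 and 183.2 CPM without. Every antibody library was below every library without antibody (log2 fold change -0.19 ± 0.05 SE, adjusted p = 0.00899, edgeR). Without replicate 3 of the antibody arm Ern1 lost its call (adjusted p = 0.0518, edgeR).

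Atf6b, the paralogue of Atf6, was the gene nearest to the threshold among those not called. It stood at 66.1, 59.1, 63.1 and 65.4 CPM with antibody and at 72.3, 78.0, 77.6 and 63.2 CPM without. The arms overlapped through replicate 4 without antibody, the lowest library of its arm (log2 fold change -0.19 ± 0.06 SE, adjusted p = 0.0604, edgeR). Without that library Atf6b was called as lower (log2 fold change -0.26, adjusted p = 0.00765, edgeR), as it was without replicate 1 of the same arm (-0.19, adjusted p = 0.0473).

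Xbp1, whose spliced mRNA encodes the transcription factor downstream of IRE1, was the most abundant gene of this group at 28.5 ± 1.13 RPKM with antibody and 30.2 ± 1.15 RPKM without (reads per kilobase of gene and per unit of library size, SD, n = 4 each). It stood at 87.0, 92.8, 92.2 and 97.1 CPM with antibody and at 97.9, 96.7, 95.3 and 103.4 CPM without. The arms overlapped, and the log2 fold change was -0.09 ± 0.05 SE (adjusted p = 0.292, edgeR). A count per gene does not separate spliced from unspliced Xbp1.

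**Figure D2:**
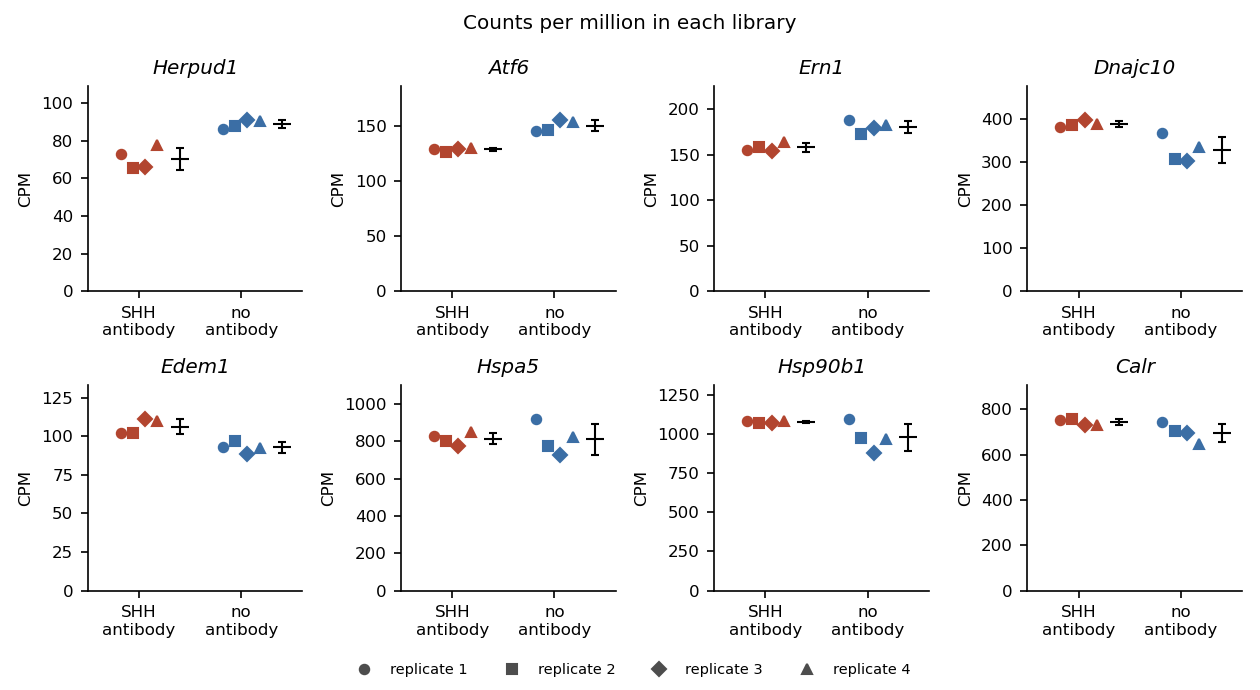
CPM (vertical axis, starting at 0) of 8 genes in each library, SHH antibody left and no antibody right, with replicates 1 to 4 as different symbols and the mean ± SD as a bar. The arms are apart for Herpud1, Atf6, Ern1, Dnajc10 and Edem1, and overlap for Hspa5, Hsp90b1 and Calr, where replicate 1 without antibody is the highest library of its arm.

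Among the 10 genes of ER-associated degradation 1 of 9 tested fell, 1 rose and 7 did not pass the test. The 2 called are 22.2% of the 9, where 8.4% of all genes tested were called. Herpud1 (ENSMUSG00000031770, chromosome 8, GRCm38) stood at 72.6, 65.2, 65.8 and 77.4 CPM with antibody and at 86.0, 87.8, 90.8 and 90.4 CPM without. The arms were apart, and the 4 libraries without antibody lay close together (log2 fold change -0.34 ± 0.06 SE, adjusted p = 0.00042, edgeR). The other subunits of the HRD1 complex did not pass the test. The ubiquitin ligase gene Syvn1, which encodes HRD1, differed by -0.06 ± 0.06 SE on the log2 scale (adjusted p = 0.635, edgeR), and its adaptor gene Sel1l by -0.04 ± 0.05 SE (adjusted p = 0.715).

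Edem1 (ENSMUSG00000030104, chromosome 6, GRCm38) stood at 102.0, 102.3, 110.9 and 110.0 CPM with antibody and at 93.2, 97.3, 88.5 and 92.5 CPM without. All 4 antibody libraries were above the highest library without antibody (log2 fold change 0.20 ± 0.05 SE, adjusted p = 0.0155, edgeR). Leaving out replicate 3 with antibody ended this call (adjusted p = 0.086, edgeR), and so did leaving out replicate 4 with antibody (0.0676) or replicate 3 without antibody (0.056). Its relatives Edem2 and Edem3, which also trim mannose from misfolded glycoproteins, had log2 fold changes of 0.02 and 0.07, and neither passed the test. The degradation lectin gene Os9 had a log2 fold change of 0.05.

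Derl1, a derlin of the ER membrane, was the most abundant degradation gene in the mean of all 8 libraries, at 34.7 ± 1.30 RPKM with antibody and 36.0 ± 1.68 RPKM without (SD, n = 4 each). It stood at 111.3, 103.0, 109.7 and 111.2 CPM with antibody and at 119.0, 111.6, 106.6 and 117.6 CPM without. The arms overlapped (log2 fold change -0.07 ± 0.05 SE, adjusted p = 0.489, edgeR). Derl2 shares exon bases with Mis12 on the other strand and had a log2 fold change of -0.02.

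Of the 11 HSP70, HSP90 and co-chaperone genes 1 rose and none fell, although 10 of the 11 had a fold above 1. The 1 called is 9.09% of the group, near the 8.4% called of all genes tested. Dnajc10 (ENSMUSG00000027006, chromosome 2, GRCm38) stood at 380.6, 386.3, 396.4 and 387.8 CPM with antibody and at 365.8, 306.8, 301.2 and 335.2 CPM without. The arms were apart, and replicate 1 without antibody was the library nearest to the antibody arm (log2 fold change 0.24 ± 0.05 SE, adjusted p = 0.00611, edgeR). Without that library the log2 fold change was 0.30 (adjusted p = 1.02e-05, edgeR).

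Hsp90b1, which encodes GRP94, had the highest level per length of the whole set in the mean of all 8 libraries, at 268.1 ± 2.37 RPKM with antibody and 241.7 ± 20.3 RPKM without (SD, n = 4 each). It stood at 1083, 1071, 1070 and 1086 CPM with antibody and at 1093, 975.1, 876.6 and 966.6 CPM without. Replicate 1 without antibody lay above all other libraries and the other 3 of its arm below the antibody arm (log2 fold change 0.14 ± 0.06 SE, adjusted p = 0.136, edgeR). Without that library Hsp90b1 was called as higher (0.20, adjusted p = 0.00143, edgeR). Some of its exon bases are shared with small transcripts on both strands.

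Hspa5, which encodes BiP, stood at 827.5, 803.7, 777.3 and 848.6 CPM with antibody and at 917.5, 776.2, 726.9 and 821.7 CPM without. The arm without antibody held both the highest and the lowest library, and the means were 814.3 ± 30.7 CPM with antibody and 810.6 ± 81.1 CPM without (SD, n = 4 each; log2 fold change 0.01 ± 0.06 SE, adjusted p = 0.97, edgeR). Without replicates 1 and 4 of the arm without antibody, Hspa5 was called as higher (0.11, adjusted p = 0.0366, edgeR). Hyou1, an exchange factor of BiP, had a log2 fold change of 0.08, and Sil1, another, of 0.00. Leaving out replicate 1 without antibody, Hyou1 was called as higher (0.13, adjusted p = 0.0449, edgeR).

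Dnajb9, the gene of the BiP co-chaperone ERdj4, which is known to restrain IRE1, was the 1 gene of this group with a fold below 1. It stood at 44.3, 45.8, 41.4 and 51.1 CPM with antibody and at 58.7, 47.5, 48.4 and 55.5 CPM without. The arms overlapped through replicate 4 with antibody (log2 fold change -0.21 ± 0.07 SE, adjusted p = 0.0787, edgeR), and without that library Dnajb9 was called as lower (-0.27, adjusted p = 0.039). Dnajb9 further passed when replicate 2 without antibody was left out (-0.25, adjusted p = 0.0398, edgeR) and with no filter on low counts (adjusted p = 0.024, edgeR). The J-domain genes Dnajb11 and Dnajc3 had log2 fold changes of 0.13 and 0.11, and Sdf2l1, which binds ERdj3, of 0.12. Creld2 and Manf, known as secreted products of ER stress, had log2 fold changes of 0.09 and 0.01, and none of these 5 passed the test.

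None of the 5 disulfide isomerase genes passed edgeR's test, 2 had an unadjusted p under 0.05, and all 5 had a fold above 1. P4hb, which encodes the founding isomerase PDI, was the most abundant at 251.2 ± 5.02 RPKM with antibody and 242.9 ± 10.3 RPKM without (SD, n = 4 each). It stood at 732.0, 710.7, 703.8 and 718.9 CPM with antibody and at 746.5, 696.1, 672.9 and 673.7 CPM without, so that the arms overlapped (log2 fold change 0.04 ± 0.05 SE, adjusted p = 0.699, edgeR). Pdia5 had the smallest p of the group. It stood at 25.7, 24.4, 25.2 and 25.3 CPM with antibody and at 21.2, 21.6, 23.0 and 23.0 CPM without, with the arms apart (log2 fold change 0.18 ± 0.07 SE, adjusted p = 0.111, edgeR). The arms were also apart for Pdia6 (log2 fold change 0.11, adjusted p = 0.142), and Pdia3 and Pdia4 had log2 fold changes of 0.07 and 0.06. Both Pdia6 (0.12, adjusted p = 0.0421) and Pdia3 (0.12, adjusted p = 0.0363) were called as higher in edgeR when replicate 1 without antibody was left out.

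The 3 lectin chaperone and glucosyltransferase genes did not pass edgeR's test, and 0 had an unadjusted p under 0.05. Calr, which encodes calreticulin, stood at 751.4, 754.7, 729.9 and 730.3 CPM with antibody and at 741.8, 702.4, 694.1 and 645.8 CPM without. Its arms overlapped through replicate 1 without antibody (log2 fold change 0.09 ± 0.05 SE, adjusted p = 0.29, edgeR), and without that library it was called as higher (0.12, adjusted p = 0.0446). Canx, which encodes calnexin, had a log2 fold change of 0.04 and Uggt1, the glucosyltransferase that marks unfolded glycoproteins for another round of folding, of 0.07.

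Neither of the 2 translocon genes was called by edgeR, and 0 had an unadjusted p under 0.05. Sec61a1, the channel subunit, stood at 362.4, 359.0, 357.8 and 357.2 CPM with antibody and at 363.4, 363.3, 357.6 and 364.5 CPM without. Its coefficient of variation was 0.644% with antibody and 0.861% without, and the 95% interval of its fold reached from 0.93 to 1.05 (adjusted p = 0.909, edgeR). An antisense transcript shares exon bases with it. Sec61b, a small subunit, stood at 17.7, 15.9, 17.2 and 16.1 CPM with antibody and at 18.0, 12.1, 14.2 and 16.6 CPM without (log2 fold change 0.12 ± 0.10 SE, adjusted p = 0.535, edgeR). Its value is uncertain, since the transcript of Gm10320 is 98.3% identical to it over 474 bases and was itself counted at 11.6 CPM with antibody and 12.2 CPM without.

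Several genes not called with all libraries passed the test once replicate 1 of the arm without antibody was left out. That library held the highest CPM of all 8 libraries for 16 of the 35 genes, 45.7%, where it did so for 22.1% of all genes tested. Replicate 3 of the same arm held the lowest for 11 of the 35, 31.4%, and for 13.2% of all genes tested. Without replicate 1, 11 of the 34 genes were called, 7 higher and 4 lower, where 10.8% of all genes were called, 5.5% higher and 5.3% lower, and the 5 genes called with all libraries were among them. Replicates 1 and 4 both stand apart from replicates 2 and 3 in these same data, and were also left out together. That fit kept the libraries with the fewest counts, 10009711 and 10670776. Leaving out the library where a gene is highest in the arm without antibody raises its fold by construction. Without both, 15 were called, 11 higher and 4 lower, where 16.3% of all genes were, 8.06% higher and 8.2% lower. The 4 lower genes were Atf6, Atf6b, Ern1 and Herpud1 in both fits. Canx (0.10, adjusted p = 0.0402), Uggt1 (0.11, 0.0444), Dnajb11 (0.17, 0.0454), Dnajc3 (0.19, 0.00432) and Sec61b (0.34, 0.0279) were called as higher in edgeR in the fit without both, but not in the fit without replicate 1 alone. The same held for Hspa5, as given above. Calr and Hyou1 went the other way, called as higher without replicate 1 alone but not called without both. Without replicate 3 of the antibody arm 3 were called, Herpud1, Atf6 and Dnajc10, where 5.06% of all genes were, 2.68% higher and 2.37% lower. With limma voom and sample weights 9 were called, 5 higher and 4 lower, where 12.2% of all genes were, 6.26% higher and 5.94% lower. With no filter on low counts 7 were called, 2 higher and 5 lower, where 6.3% of all genes with a count were, 3.52% higher and 2.78% lower.

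**Figure D3:**
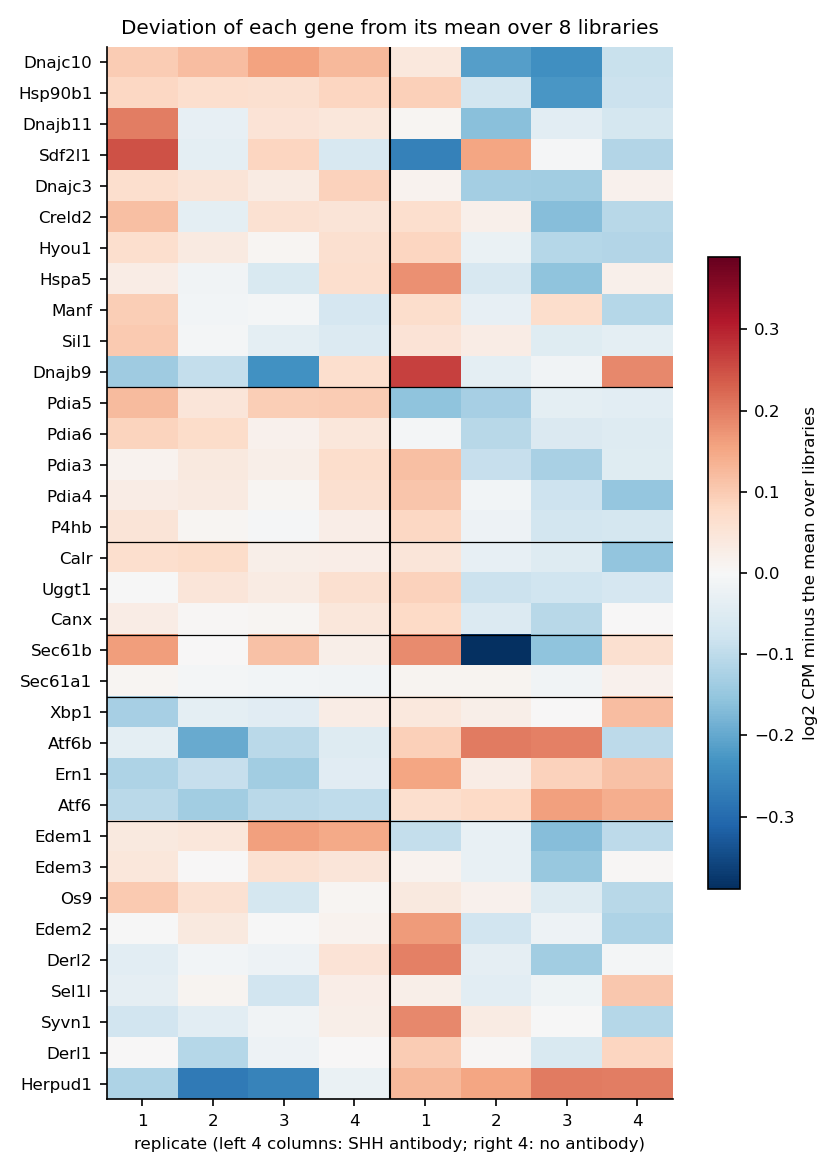
Log2 CPM of each tested gene minus its mean over the 8 libraries (colour), with the 4 SHH antibody libraries in the left columns and the 4 no antibody libraries in the right columns, and lines between role groups. Replicate 1 without antibody is red for most chaperone, isomerase and lectin genes, where the other libraries of its arm are mostly blue, and the sensor genes Atf6 and Ern1 are blue in every antibody library and red in every library without antibody.

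The spread between libraries was smaller with antibody for most of these genes. The coefficient of variation of CPM was lower with antibody for 28 of the 34 genes, with a median of 2.82% with antibody and 5.76% without. It was lower with antibody for 10020 of all 13626 genes tested. Over all genes tested the medians were 5.28% with antibody and 8.35% without, so the smaller spread in that arm was not confined to the ER genes. The arm without antibody also held replicate 1, which stood apart, and the less deep libraries, and the cause of the spread was not tested.

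Many of these genes are known targets of ATF6 and XBP1 through the ER stress response element, and its letters were sought in the start-site windows of the RefSeq genes (250 bases before to 50 after the start, GRCm38.p6). The element was taken as CCAAT and CCACG with 9 bases of any kind between them, and was searched on both strands. It was found in the windows of 9 of the 29 members that have one, 31%, and of 37 of all 27025 genes with a window, 0.137%. Because many members are known targets through this element, the difference is not a result of these data. The matches are shown because the element is far more frequent among the members than among all genes, each read in the direction of the element with its fixed letters in capitals.
Hspa5, chr2:34772025-34772043, plus strand: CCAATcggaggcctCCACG
Hsp90b1, first match, chr10:86705638-86705656, minus strand: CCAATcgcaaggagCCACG
Hsp90b1, second match, chr10:86705533-86705551, plus strand: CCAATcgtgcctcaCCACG
Dnajc3, chr14:118937827-118937845, plus strand: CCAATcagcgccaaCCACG
Creld2, chr15:88819520-88819538, minus strand: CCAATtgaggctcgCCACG
Pdia6, chr12:17266491-17266509, plus strand: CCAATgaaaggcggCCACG
Calr, chr8:84847075-84847093, plus strand: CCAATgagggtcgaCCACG
Canx, chr11:50325800-50325818, minus strand: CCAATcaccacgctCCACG
Syvn1, chr19:6046532-6046550, plus strand: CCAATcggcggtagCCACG
Derl3, chr10:75893242-75893260, minus strand: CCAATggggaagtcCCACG

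None of the tested members with this element was called with all libraries. Over all genes whose window holds it, 16 were matched by symbol to a tested gene. Of the 16, edgeR called 0 at adjusted p under 0.05, where 8.61% of the 9172 tested genes with a window were called. Ero1b also holds it, but the counts carry its older symbol Ero1lb, so it is not among the 16. Under that symbol it was tested and not called (log2 fold change -0.04, adjusted p = 0.908, edgeR). An unadjusted p under 0.05 was found for 5 of the 16, and for 1996 of the 9172. Their median log2 fold change was 0.08, or -0.01 over the 8 of them that are not members. Dnajc10, Edem1 and Ern1, which were called, have a window without these letters. Atf6, Derl1, Hyou1, Manf, Sec61a1 and Sil1 were not matched to a window.

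The windows of Hspa5 and Herpud1 are shown because exact matches to different elements were found in them. Forms that differ from an element by a letter were not sought. Whether these elements bear on the fold changes was not tested. In the 150 bases before the start of Hspa5 (chr2:34771940-34772089, plus strand), capitals mark CCAAT and CCACG on either strand.
Hspa5: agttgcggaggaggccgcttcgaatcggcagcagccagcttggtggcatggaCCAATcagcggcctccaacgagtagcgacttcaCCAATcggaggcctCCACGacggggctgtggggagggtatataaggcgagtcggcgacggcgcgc
In the 150 bases before the start of Herpud1 (chr8:94386279-94386428, plus strand), capitals mark a match to TGATGCAA, read on the other strand as TTGCATCA, and a match to ATTGG and CCACG with 1 base between them. The match with CCACG is known as the second type of ER stress element, and TGATGCAA as a form of the site that ATF4 binds with C/EBP partners. CCAAT and CCACG outside these matches are not marked in this window.
Herpud1: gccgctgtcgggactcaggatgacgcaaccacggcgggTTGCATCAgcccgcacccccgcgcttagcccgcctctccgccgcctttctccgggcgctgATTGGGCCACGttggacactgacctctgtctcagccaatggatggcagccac

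The second type of element was found in the windows of Herpud1 and Dnajb11 and in 0.0444% of all genes with a window. Of the 8 tested genes that hold it 2 were lower, Herpud1 and Krtcap2, 25%, and none was higher. Dnajb11 was not called (log2 fold change 0.13, adjusted p = 0.163, edgeR), and of the 6 that are not members 1 was lower. TGATGCAA was found in the window of Herpud1 alone among the 29 members and in 1.03% of all genes with a window. Of the 63 tested genes whose window holds it, Herpud1 included, 13 were lower with antibody, 20.6%, and 1 was higher, where 3.88% and 4.73% of tested genes with a window were. Among the 13 were the glutathione-degrading enzyme gene Chac1 and the proline synthesis gene Pycr1, chosen after their values were seen (log2 fold changes -0.75 and -0.87). Another element bound by ATF6 and XBP1, TGACGTGG, was found in no window of the members and in 0.714% of all genes with a window. Of the 101 tested genes that hold it 7 were lower, 6.93%, and 1 was higher. A match in a window is a description of its letters and does not show binding.

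Level per length separated the major chaperones from the rest. The 6 genes with the highest mean RPKM were Hsp90b1, Calr, P4hb, Hspa5, Pdia3 and Canx, each above 98% of all genes tested. They made up 64.3% to 64.7% of the summed RPKM of the 35 genes in the antibody libraries and 62.8% to 64.7% in those without. Neighbours among these 6 overlapped in their libraries' ranges, but the lowest library of Canx (178.6 RPKM) lay above the highest of Pdia4 (79.8 RPKM), the next gene. Pdia4, Dnajc10 and Pdia6 followed, and then Sec61a1 at 55.6 to 57.1 RPKM, apart from its neighbours on both sides. From Derl1 (32.8 to 37.5 RPKM) down to Sec61b (9.51 to 14.1 RPKM) each gene overlapped the next. Derl2 lay below these at 7.29 to 9.03 RPKM, and Derl3 at 0.0486 to 0.345 RPKM. In the mean of all 8 libraries, Dnajc10 was the most abundant of the called genes and Atf6, at 13.9 ± 0.182 RPKM with antibody and 16.2 ± 0.618 RPKM without (SD, n = 4 each), the least.

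**Figure D4:**
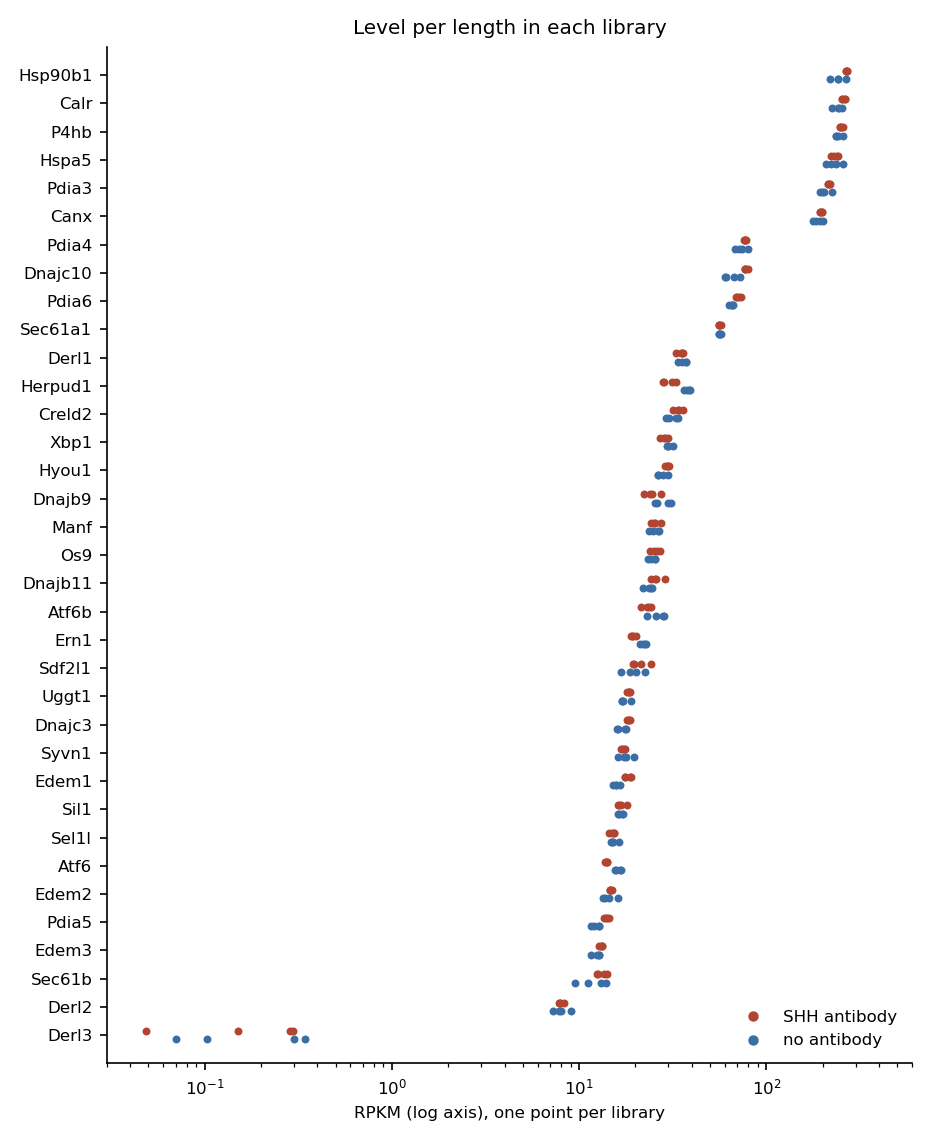
RPKM of each of the 35 genes (log axis), ordered by mean level, with 1 point per library, SHH antibody above no antibody in each row. The 6 major chaperone genes lie above 178 RPKM in every library, and Derl3 lies below 0.35 RPKM in every library.

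Other genes of the same organelle were counted on 5 further lists of 98 genes, of which 97 were found and tested. Of these 3 rose and 10 fell, 13.4% together, where 8.4% of all genes tested were called, 4.53% higher and 3.87% lower. Their median log2 fold change was -0.01. The 11 genes of the PERK branch and its ATF4 targets held 7 of the 10 falls, 63.6% of that list, and no rise, with a median of -0.31. Trib3, a pseudokinase (log2 fold change -0.84 ± 0.08 SE), Chac1 (-0.75 ± 0.08 SE), and the transcription factor genes Atf5 (-0.59 ± 0.08 SE) and Ddit3 (-0.57 ± 0.08 SE) had the smallest p. The sensor gene of this branch, Eif2ak3, which encodes PERK, averaged 55.6 ± 2.69 CPM with antibody and 55.2 ± 2.65 CPM in the other arm (SD, n = 4 each; log2 fold change 0.01 ± 0.06 SE, adjusted p = 0.965, edgeR). Whether PERK lies behind the falls on this list was not tested.

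Among 20 ER oxidoreductases and prolyl isomerases 2 fell and none rose. They were Ero1l, the oxidase that recharges PDI (log2 fold change -0.32 ± 0.06 SE, adjusted p = 0.00223, edgeR), and the prolyl isomerase gene Fkbp11 (-0.31 ± 0.08 SE, adjusted p = 0.0155). Of 26 genes of targeting, translocation, signal peptidase and oligosaccharyltransferase 1 fell, Krtcap2, a subunit of the oligosaccharyltransferase (-0.31 ± 0.05 SE, adjusted p = 0.000357). Of 28 genes of glycan trimming and ubiquitin-dependent degradation 2 rose and none fell. They were the ER ubiquitin ligase gene Rnf103 (0.27 ± 0.06 SE, adjusted p = 0.00295) and Vcp, the ATPase that pulls substrates out of the membrane (0.19 ± 0.06 SE, adjusted p = 0.0471), whose arms overlap. Of 12 genes of site proteases, ER membrane factors and IRE1 partners 1 rose, Map3k5, a kinase recruited by IRE1 (0.19 ± 0.05 SE, adjusted p = 0.0289). The share called was 10% of the 20, 3.85% of the 26, 7.14% of the 28 and 8.33% of the 12. Each was near or below the 8.4% of all genes tested.

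**Figure D5:**
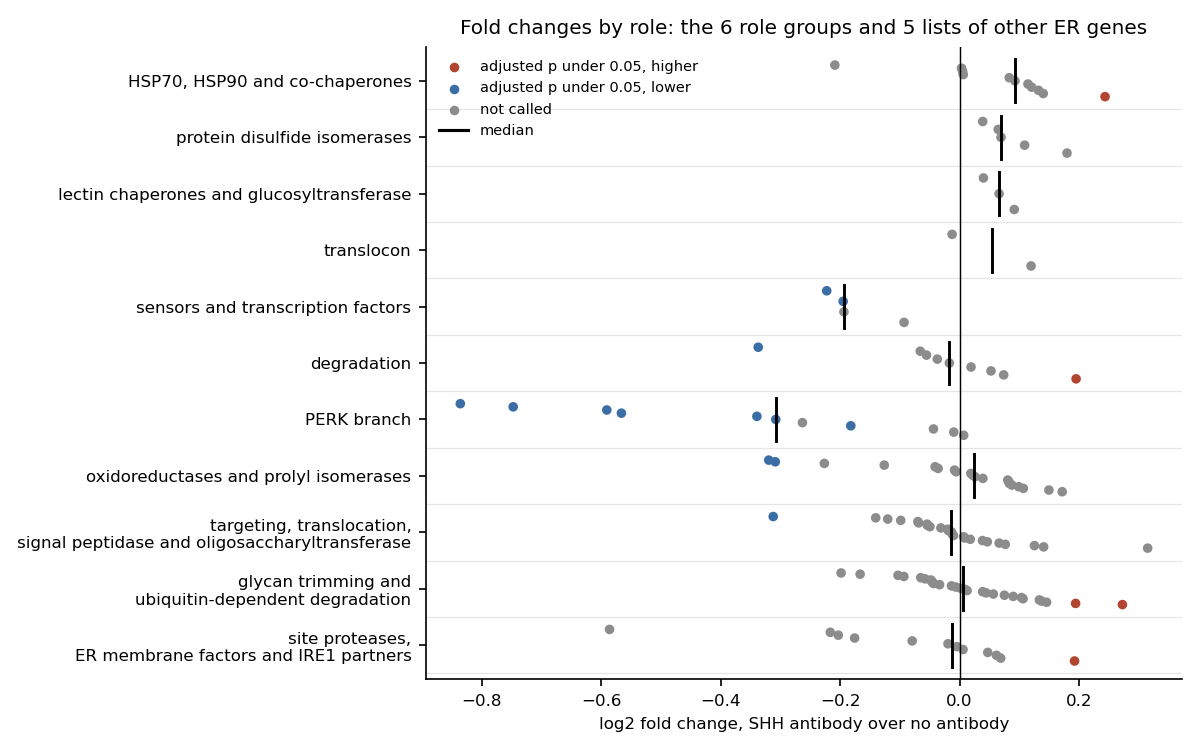
Log2 fold change of each tested gene (SHH antibody over no antibody, horizontal axis) in the 6 role groups of the 35 genes and in 5 lists of other ER genes, with the median of each as a bar. The list of the PERK branch and its ATF4 targets reaches down to -0.84 with a median of -0.31, while no gene of the 6 role groups lies below -0.34 or above 0.24.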

How the data were processed

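Strand-specific polyA libraries of sorted cells were sequenced in 4 samples per arm. One element of the shared genotype is not reported here. Per the submitters' processing notes, CASAVA 1.8.2 and TopHat2 2.0.9 were used with GRCm38. Neither the counting tool nor its annotation and strand setting is named in the labels, and so reads of overlapping genes on opposite strands may not be told apart. The authors deposited raw counts per gene and RPKM values for the same libraries. RPKM equalled count over 1 gene length and column total for 12005 of 12005 genes checked (tolerance 0.5 bases).

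The counts went into a quasi-likelihood fit of edgeR 4.0.16 (R 4.3.3) with arm as the only term, after its default expression filter and TMM scaling, and p-values were adjusted by Benjamini-Hochberg over 13626 genes. Fold changes are antibody over no antibody, and their standard errors were derived from the F values. CPM are counts scaled with TMM factors. At these depths 3 counts correspond to 0.19 to 0.30 CPM, for counting error only. P-values measure the spread between these samples, which the labels call biological without tying them to animals.

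The members and lists were chosen with earlier results of these data known, and no test was made over a list. All members are given, with values per library for called genes, those next to the threshold, and the most abundant and smallest p of each role. Replicate numbers did not pair the samples (correlations of same-numbered deviations -0.03 to 0.01). Libraries of the same arm all differed by more than counting noise (chi-square per degree of freedom 1.72 or more). Shared exon bases and near-identical transcripts (95% over 200 bases, BLAST 2.17.0) were taken from GENCODE M21. Start-site windows of RefSeq GRCm38.p6 were matched by symbol, leaving out symbols found on more than 1 row. A gene whose symbol differs between the windows and the counts was not matched. The fit was also run on simulated counts, and its rate of recovery for small folds is not given here. Alternatives used DESeq2 1.42.0 and limma 3.58.1 among others.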

Additional observations from a re-analysis of the deposited data

Results flagged for a closer look

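In 2 genes, 1 library lay far from the other 3 of its arm by Dixon's test at the 95% level, out of 80 sets of 4 libraries examined, of which chance flags about 1 in 20. Uggt1 stood at 187.9 CPM in replicate 1 without antibody, against 166.8 to 169.0 CPM in the other libraries of that arm. Sec61a1 stood at 357.6 CPM in replicate 3 without antibody, against 363.3 to 364.5 CPM in the other libraries of that arm.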

How the results depend on the processing

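The 20 alternatives were 2 other scalings, 2 other low-count filters (none, and a stricter one), a fit blocked on replicate number, DESeq2, limma voom with and without sample weights, log2(RPKM + 1), log2(RPKM + 0.1), each library left out, replicates 1 and 4 without antibody left out together, and, chosen after seeing the data, thinning to the smallest total. Replicates 1 and 4 without antibody were left out together as libraries that stand apart in these same data. Herpud1, Atf6 and Dnajc10 were called in all 20, Ern1 in 19 and Edem1 in 17, in the same direction throughout. The count of called genes of the set was 5 with all libraries, 9 with sample weights and 15 without replicates 1 and 4 without antibody, and it ran from 3 to 11 when 1 library was left out. The replicate block left it at 5, and over all genes gave 1005 calls against 1144. Over all genes 675 were called on log2(RPKM + 1), 670 on log2(RPKM + 0.1), 2262 without replicates 1 and 4 without antibody, and 679 to 1485 when 1 library was left out. The cause was not tested. Of 680 values of single genes, 4 lost and 26 gained a call, and none that was called changed direction. The median log2 fold change of the set ran from 0.02 to 0.08. Depth limits Derl3, which had at most 6 counts in a library.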
